A study of Rattus norvegicus with 6 samples.

Results

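The receptors that answer glutamate, GABA, glycine, acetylcholine (the nicotinic type) and serotonin (the ionotropic type) were followed in samples of the dorsal root ganglion (DRG). Members were the protein-coding genes whose symbols begin as those of the ionotropic and metabotropic glutamate receptors (Gria, Grid, Grik, Grin, Grm), the GABA-A and GABA-B receptors (Gabr, Gabbr), the glycine receptors (Glr), the nicotinic receptors (Chrn) and the ionotropic serotonin receptors (Htr3a, Htr3b). These symbols took 68 of the 25689 genes in the table, and 46 of them had enough reads to be tested among 14919 genes. The symbol rule also took Grid2ip, which encodes delphilin, a synaptic scaffold and no receptor itself; 67 genes, 45 of them tested, remained without it. Grm4, Chrnd and Chrng were not analysed here.

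Sensory neurons of the DRG carry signals from the periphery to the spinal cord and release glutamate there. Their own membranes bear ligand-gated channels, of which kainate, NMDA and AMPA receptors pass cations on binding glutamate, nicotinic and 5-HT3 receptors do so on binding acetylcholine and serotonin, and GABA-A and glycine receptors pass chloride. Metabotropic glutamate receptors and the GABA-B receptor act through G proteins, and in these neurons GABA-A and GABA-B receptors at the central terminals are known for presynaptic inhibition.

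The study asked whether and how the perirenal adipose tissue regulates hypertension, and 1 of its means was ablation of this fat (PRATA). RNA was sequenced from 3 samples of spontaneously hypertensive rats (SHRs) after PRATA and from 3 of SHRs after a sham operation, all of wild type genotype. By the paper's methods, neurons of the L1-L2 DRGs were isolated 4 weeks after the operation by digestion and differential adhesion. No selection of the neurons that supply this fat is described for this isolation. Both groups carried the hypertensive background and, by those methods, went through the same isolation. The rats are labelled as 6 to 8 weeks old, an older age at purchase stands in the methods, and no normotensive rats were analysed here. The series' text speaks of DRG tissues of 3 rats in each group, whereas the paper describes isolated neurons. The sample labels do not tie each library to 1 animal, so p-values measure the spread between these samples.

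Total counts ranged from 5892967 in sham replicate 2 to 15226952 in sham replicate 1. Values are given as counts per 1000000 reads (CPM) after scaling by the trimmed mean of M values (TMM), always for replicates 1, 2 and 3 in this order, and a floor of 3 counts was worth 0.207 to 0.468 CPM. All 24 sensory neuron markers were present, with a summed level of 16617 to 24442 CPM after PRATA and 11875 to 17970 CPM after sham. The 9 satellite glial markers summed to 3379 to 6560 CPM and 4538 to 8925 CPM, and the 8 skeletal muscle markers in the table to 7.17 to 8.94 CPM and 4.56 to 16.5 CPM. Neuron and glial markers thus both overlapped between the groups. Levels were read within a gene across samples, since no transcript lengths were at hand to compare genes.

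No receptor gene passed the adjusted threshold. By edgeR's quasi-likelihood F test, Benjamini-Hochberg adjusted over 14919 genes, 0 of 46 receptor genes had an adjusted p under 0.05 in either direction, as had 0 of all genes (0%). At an unadjusted p under 0.05, 3 receptor genes were higher after PRATA (Gria1, Grik4 and Grid2ip) and 2 were lower (Grin2a and Gabra3), whereas 8.19% of all genes were higher and 10.1% lower. The 5 genes made up 10.9% of the receptor genes tested, beside 18.3% of all genes in either direction. With a log2 fold change over 1 in size as well, 0 receptor genes were higher (1.17% of all genes) and 1, Grin2a, was lower (3.23%). DESeq2 also gave 0 receptor genes at an adjusted p under 0.05 (1.57% of all genes higher, 3.42% lower), with 4 higher and 2 lower at an unadjusted p under 0.05 (7.46% and 11.1%). limma-trend gave 0, again with 4 higher and 2 lower unadjusted (8.39% and 8.92% of all genes), and limma voom with sample quality weights gave 1 higher, Gria1, and 1 lower, Grin2a (3% and 4.87% of all genes).

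The receptor genes lay above 0 more often than below it. The log2 fold change was above 0 for 31 of 46 receptor genes, beside 52% of all genes, and its median was 0.34 over the receptor genes and 0.02 over all genes tested. Between groups, 7 receptor genes did not overlap with PRATA higher (Gria1, Grid2ip, Grik4, Grik5, Grin2d, Gabbr1 and Chrna2; 11.6% of all genes) and 2 did not with PRATA lower (Grin2a and Gabra3; 11.2% of all genes). By class the median was 0.25 over 18 ionotropic glutamate genes, 0.34 over 3 metabotropic glutamate genes, 0.00 over 8 GABA-A genes, 0.42 over 2 GABA-B genes, 0.26 over 12 nicotinic genes and 0.35 over 2 serotonin genes, and it was 0.49 for Glrb, the 1 glycine receptor gene tested.

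**Figure D1:**
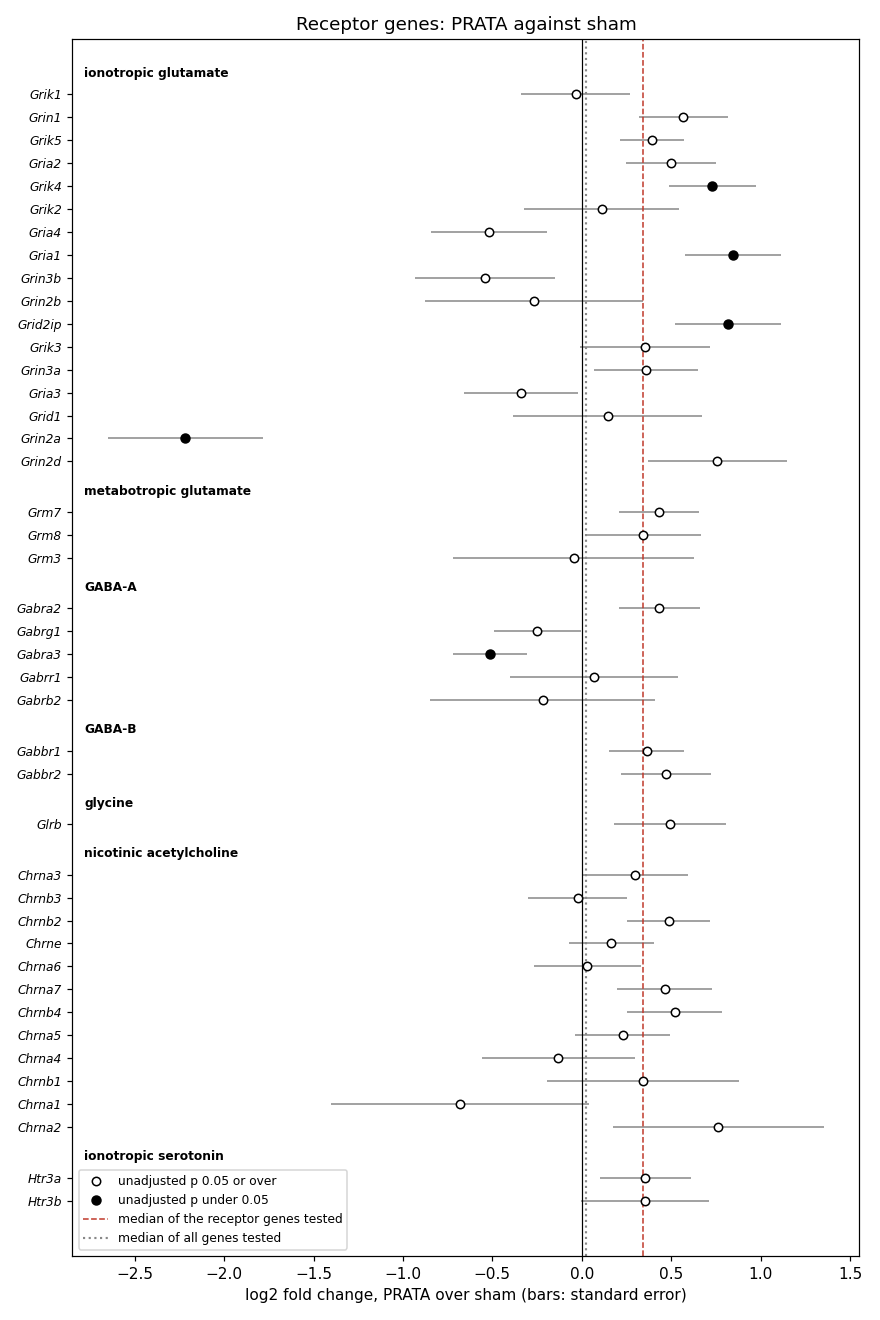
Log2 fold change of 42 receptor genes tested, PRATA over sham, by class (points, fitted value; bars, standard error; filled points, unadjusted p under 0.05; dashed line, median of the receptor genes, 0.34; dotted line, median of all genes, 0.02). Most points lie to the right of 0, and Grin2a lies farthest to the left at -2.22.

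Markers of several cell types shifted beside the receptor genes. The median log2 fold change of the 24 sensory neuron markers was 0.47, with 23 of 24 above 0, and that of the 9 satellite glial markers was -0.58, with 1 of 9 above 0. The 9 myelinating Schwann cell markers had a median of 0.69, with 8 above 0 and 4 not overlapping between groups with PRATA higher, and a summed level of 881 to 1531 CPM after PRATA and 691 to 1005 CPM after sham. Of the markers tested, 6 of 8 macrophage markers lay above 0 (median 0.57; sums of 21.3 to 64.9 and 21.3 to 50.1 CPM), 6 of 8 endothelial and mural markers (median 0.25) and 1 of 8 fibroblast markers (median -0.49). The part of these cell types in the receptor values was not tested. For each sample, the median deviation of the receptor genes from their own means, on the log2(CPM + 1) scale, was 0.22, -0.05 and 0.30 after PRATA and -0.34, 0.14 and -0.18 after sham. The same median over the neuron markers was 0.34, 0.00 and 0.40 after PRATA and -0.54, 0.06 and -0.33 after sham. Satellite glial markers ran the other way, at -0.56, 0.49 and -0.72 after PRATA and 0.53, -0.28 and 0.56 after sham. PRATA replicate 2 was the lowest of its group for 31 of 46 receptor genes and sham replicate 2 the highest of its group for 29 of 46. The same counts over all genes were not worked out, so these cannot be called particular to the receptor genes. By the median deviations of the receptor genes and of the neuron markers the groups overlapped, with sham replicate 2 above PRATA replicate 2. In bulk RNA, fewer cells of a type and less RNA per cell cannot be told apart.

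When the libraries were scaled instead to equal levels of the neuron markers, the median of all genes became -0.44, a shift of over 0.1, and that of the receptor genes -0.12. Relative to the neuron markers, 0 of 46 receptor genes were higher (0.328% of all genes) and 2 lower (25.2% of all genes) at an unadjusted p under 0.05, and 0 passed at an adjusted p (0%). Without sham replicate 2, 13 of 48 receptor genes were higher (13.4% of all genes) and 3 lower (14.1%) at an unadjusted p under 0.05, and 1, Grin1, had an adjusted p under 0.05 with PRATA higher (1.05% of all genes) beside 0 lower (3.62%). Without PRATA replicate 2, 7 of 47 were higher (7.53%) and 1 lower (7.86%). The number higher was 1 of 51 without PRATA replicate 1 (3.47% of all genes), 1 of 48 without PRATA replicate 3 (5.55%), 1 of 49 without sham replicate 1 (6.48%) and 2 of 51 without sham replicate 3 (3.76%). In these 4 fits 1 receptor gene was lower, beside 5.44%, 7.5%, 8.91% and 5.57% of all genes in the same order. The part of neuron content in these counts was not tested.

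**Figure D2:**
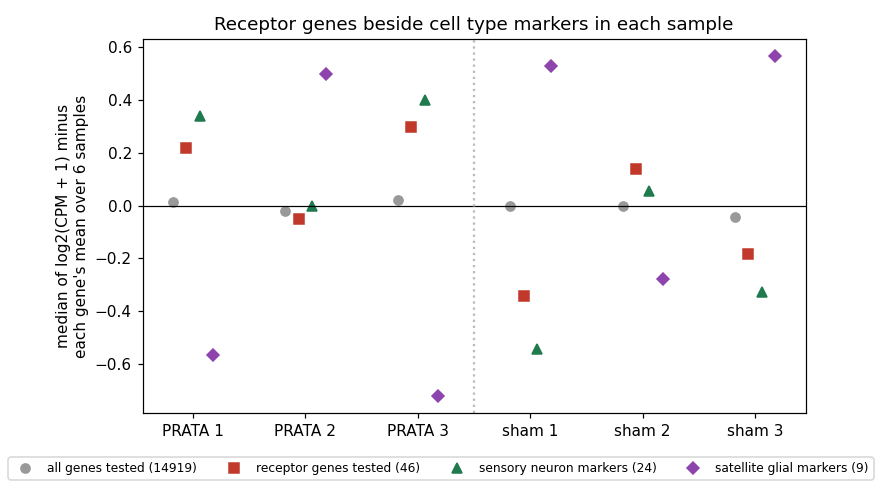
Median of log2(CPM + 1) minus each gene's mean over the 6 samples, for all genes tested (14919), the receptor genes tested (46), sensory neuron markers (24) and satellite glial markers (9), with 1 column for each sample. Receptor genes and neuron markers are lowest in sham replicate 1 (-0.34 and -0.54) and highest in PRATA replicate 3 (0.30 and 0.40).

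Among the AMPA receptor genes, Gria1 was higher and its relatives were mixed. Gria1 (ENSRNOG00000045816), which encodes the GluA1 subunit of the AMPA receptor, was at 11.7, 12.4 and 11.4 CPM after PRATA and at 6.49, 8.74 and 4.72 CPM after sham. The lowest PRATA sample exceeded the highest sham sample, and the PRATA samples were closer to each other than the sham samples were. The means were 11.9 ± 0.529 and 6.65 ± 2.01 CPM (SD, n = 3 each), a log2 fold change of 0.84 ± 0.27 (SE), with an edgeR p of 0.0136 and an adjusted p of 0.189. Over 17 alternative settings the log2 fold change was 0.41 (scaled to neuron markers) to 1.08 and the adjusted p 0.0384 (voom with quality weights) to 0.550. Gria2, whose edited GluA2 subunit blocks calcium entry, averaged 26.6 CPM after PRATA and 18.9 CPM after sham. Gria3 (4.82 and 6.09 CPM) and Gria4 (10.7 and 15.2 CPM), which encode GluA3 and GluA4, had lower means after PRATA, and the groups overlapped for all 3.

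The make-up of the AMPA genes was described from their share of the reads, which does not depend on library scaling. Gria1 took 20.4%, 23.4% and 22.2% of the reads of Gria1 to Gria4 after PRATA and 13.6%, 18.5% and 10.4% after sham, of 303 to 693 reads in a sample. These shares did not overlap, with means of 22.0 ± 1.46% and 14.1 ± 4.08% (SD, n = 3). Gria4 took 19.1%, 23.5% and 16.8% after PRATA and 36.5%, 18.2% and 43.2% after sham, so sham replicate 2 lay within the range of the PRATA samples.

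The kainate receptor genes did not move as 1 group. Grik1 (ENSRNOG00000001575) encodes GluK1, the kainate subunit for which DRG neurons are best known, and was at 112, 82.1 and 153 CPM after PRATA and at 82.0, 163 and 111 CPM after sham. The groups covered nearly the same range, and the log2 fold change was -0.03 ± 0.31 (SE; adjusted p 0.965). It was above 0 under voom with quality weights and without either replicate 2, at 0.04 to 0.26. Grik4 (ENSRNOG00000030910), which encodes the high-affinity partner subunit GluK4, was at 20.8, 14.3 and 22.4 CPM after PRATA and at 10.1, 13.9 and 10.8 CPM after sham. PRATA replicate 2 and sham replicate 2 nearly met, but the groups did not overlap. The means were 19.1 ± 4.30 and 11.6 ± 2.03 CPM (SD), a log2 fold change of 0.73 ± 0.24 (SE), p 0.0168 and adjusted p 0.20, with an adjusted p of 0.0563 to 0.551 over the alternatives.

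Grik5, which encodes the other high-affinity subunit GluK5, averaged 30.5 CPM after PRATA and 23.3 CPM after sham, and its groups did not overlap (p 0.0599). GluK2 and GluK3 are further kainate receptor subunits. Their genes Grik2 (15.4 and 14.1 CPM) and Grik3 (8.65 and 6.73 CPM) overlapped between groups. Of the reads of the 5 kainate genes, 1370 to 2847 in a sample, Grik4 took 11.5%, 8.76% and 9.94% after PRATA and 6.79%, 6.50% and 6.68% after sham. Its share was higher in every PRATA sample, and that of Grik1 ranged from 50.5% to 76.2% with no separation of the groups.

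The NMDA receptor genes held the lowest ratio of all receptor genes tested. Grin1 (ENSRNOG00000011726), which encodes GluN1, the subunit that every NMDA receptor needs, was at 123, 92.7 and 115 CPM after PRATA and at 56.2, 102 and 65.2 CPM after sham. Sham replicate 2 lay above PRATA replicate 2, so the groups overlapped. The means were 110 ± 15.7 and 74.4 ± 24.2 CPM (SD), a log2 fold change of 0.57 ± 0.25 (SE) with p 0.0504 and adjusted p 0.273. Without sham replicate 2 it was 0.86 with an adjusted p of 0.0493, and over all 17 settings it was 0.14 to 0.86 with an adjusted p up to 0.640.

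Grin2a (ENSRNOG00000033942) encodes GluN2A, a subunit that binds glutamate and gives the receptor fast decay. It was at 0.516, 1.43 and 0.949 CPM after PRATA and at 4.35, 4.68 and 4.91 CPM after sham, from 4, 18 and 12 reads and 63, 30 and 52 reads. Every sham sample stood well above every PRATA sample, and the shallowest library, sham replicate 2, lay with its own group. The means were 0.966 ± 0.459 and 4.65 ± 0.281 CPM (SD), a log2 fold change of -2.22 ± 0.43 (SE), which is 4.65-fold higher in the sham group, with p 0.000856 and adjusted p 0.156. The log2 fold change lay between -2.64 and -1.55 over 16 alternatives, with an adjusted p of 0.0315 (voom with quality weights) to 0.550. With at least 10 counts asked of every sample the gene was not tested, since PRATA replicate 1 had 4.

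Of the reads of the 4 GluN2 genes, Grin2a took 4.49%, 7.96% and 10.3% after PRATA and 18.7%, 40.5% and 33.1% after sham. These shares rest on 74 to 337 reads in a sample and did not overlap. Grin2b, which encodes GluN2B, averaged 8.06 and 9.58 CPM in PRATA and sham and ran from 2.85 to 16.4 CPM over the samples. Grin2d, for GluN2D, averaged 3.44 and 2.01 CPM, with no overlap between the groups (log2 fold change 0.76, p 0.0872, adjusted p 0.333). Grin2c, for GluN2C, had at most 12 reads and was not tested. Grin3a (8.42 and 6.58 CPM) and Grin3b (7.55 and 10.9 CPM) encode the glycine-binding GluN3 subunits, and the sham mean of Grin3b was set by 18.1 CPM in sham replicate 1.

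**Figure D3:**
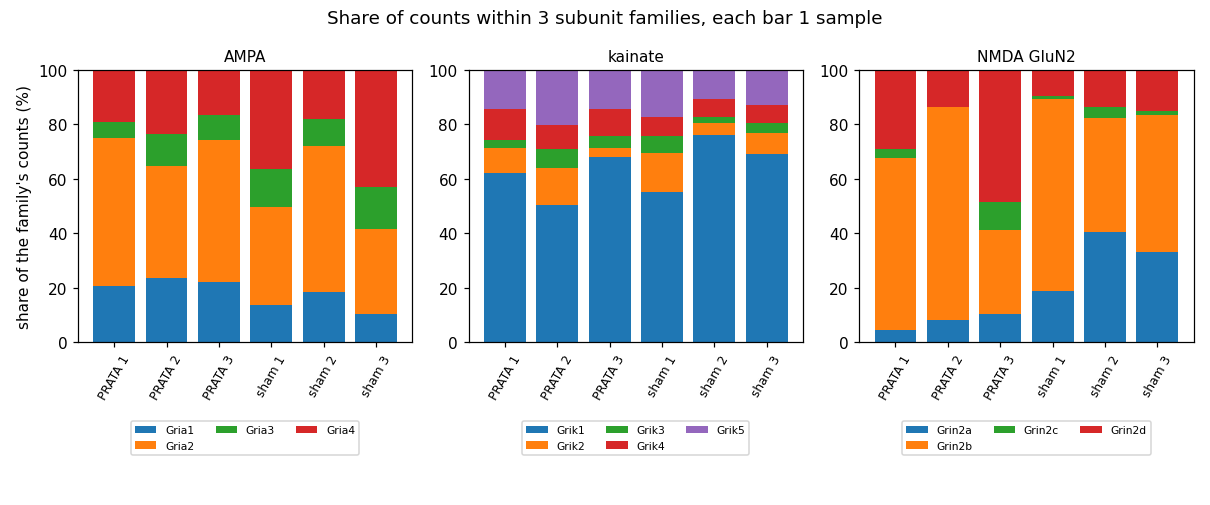
Share (%) of the reads of a subunit family taken by each gene, with 1 stacked bar for each sample, for AMPA, kainate and NMDA GluN2 genes. The shares of Gria1 and Grik4 are larger in every PRATA sample than in any sham sample, and that of Grin2a is smaller (4.49% to 10.3% against 18.7% to 40.5%).

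Grid1, for the orphan subunit GluD1, averaged 5.56 CPM after PRATA and 4.95 CPM after sham, and its groups overlapped. Grid2ip (ENSRNOG00000030927), the scaffold named above, was at 12.8, 7.09 and 11.1 CPM after PRATA and at 5.11, 5.31 and 7.08 CPM after sham. Its groups did not overlap, though PRATA replicate 2 and sham replicate 3 lay side by side. The log2 fold change was 0.82 ± 0.30 (SE), p 0.0239, adjusted p 0.221, and the adjusted p was 0.126 to 0.583 over the alternatives.

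Of the metabotropic glutamate genes tested, Grm7 and Grm8, for receptors that inhibit transmitter release, overlapped between groups. Grm7 (ENSRNOG00000005662), for mGlu7, was at 34.6, 29.6 and 40.2 CPM after PRATA and at 24.2, 32.8 and 20.6 CPM after sham. Grm8 (ENSRNOG00000021468), for mGlu8, was at 16.4, 8.37 and 13.7 CPM after PRATA and at 7.12, 12.8 and 10.5 CPM after sham. Their log2 fold changes were 0.43 ± 0.22 (adjusted p 0.332) and 0.34 ± 0.32 (SE; adjusted p 0.599), and both lay slightly below 0 (-0.02 and -0.12) when scaled to the neuron markers. Grm3, for the group II receptor mGlu3, averaged 1.79 and 1.96 CPM. Among the genes not tested were Grm2 with at most 22 reads, Grm5 with 5 and Grm6 with 15. The highest values of Grm2 and Grm6 were those of sham replicate 2.

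The GABA-A genes differed in direction. GABA-A receptors are pentamers, usually of alpha, beta and gamma subunits. Gabra2 (ENSRNOG00000002349), for the alpha2 subunit, was at 79.9, 57.1 and 69.1 CPM after PRATA and at 40.1, 65.2 and 47.5 CPM after sham. The groups overlapped, with sham replicate 2 above PRATA replicate 2. The log2 fold change was 0.43 ± 0.23 (SE; adjusted p 0.339), and -0.00 when scaled to the neuron markers.

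Gabra3 (ENSRNOG00000056558), for the alpha3 subunit, was at 10.2, 11.4 and 10.4 CPM after PRATA and at 17.3, 12.6 and 15.7 CPM after sham. All 3 PRATA samples lay below all 3 sham samples, of which sham replicate 2 was the nearest. The means were 10.7 ± 0.633 and 15.2 ± 2.35 CPM (SD), a log2 fold change of -0.51 ± 0.21 (SE), p 0.0370 and adjusted p 0.245, with a range of -0.99 to -0.40 and an adjusted p of 0.0757 to 0.610 over the alternatives.

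Further GABA-A genes tested encode the gamma1, beta2 and rho1 subunits, and the groups overlapped for each. Gabrg1 averaged 13.1 CPM after PRATA and 15.5 CPM after sham, Gabrb2 1.72 and 2.06 CPM, and Gabrr1, whose rho1 subunit forms receptors on its own, 2.09 and 2.04 CPM. A further 11 genes were not tested. The most reads in any sample were 21 for Gabra4, 21 for Gabra5, 4 for Gabra6, 17 for Gabrb1, 1 for Gabrd, 14 for Gabre, 6 for Gabrg3, 3 for Gabrp, 13 for Gabrq, 17 for Gabrr2 and 7 for Gabrr3.

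Both GABA-B genes had higher means after PRATA and neither passed the test. The GABA-B receptor is an obligate pair of GABA-B1, which binds GABA, and GABA-B2, which couples to the G protein. Gabbr1 (ENSRNOG00000000774) was at 612, 548 and 591 CPM after PRATA and at 375, 544 and 443 CPM after sham. The groups met at the replicates numbered 2 without overlapping, with means of 584 ± 32.4 and 454 ± 85.1 CPM (SD) and a log2 fold change of 0.36 ± 0.21 (SE; p 0.121, adjusted p 0.385). Gabbr2 (ENSRNOG00000008431) was at 288, 189 and 248 CPM after PRATA and at 139, 227 and 157 CPM after sham. Its groups overlapped at the same replicates, with a log2 fold change of 0.47 ± 0.25 (SE; adjusted p 0.347). Scaled to the neuron markers, the values were -0.07 for Gabbr1 and 0.03 for Gabbr2.

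Among the glycine receptor genes only the beta subunit gene was tested. Glrb (ENSRNOG00000010199), whose product anchors the receptor to gephyrin and forms channels only with an alpha subunit, was at 75.3, 33.6 and 62.0 CPM after PRATA and at 30.5, 49.6 and 41.4 CPM after sham. The groups overlapped, since PRATA replicate 2 lay below 2 of the sham samples, and the log2 fold change was 0.49 ± 0.31 (SE; adjusted p 0.428). The alpha subunit genes had few reads. Glra1, Glra2 and Glra3 reached at most 3 reads in any sample, the floor, and Glra4 reached 9, with 6, 2 and 9 reads after PRATA and 6, 2 and 4 after sham.

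The nicotinic genes of the neuronal subunits had overlapping groups in nearly every case. Chrna3 (ENSRNOG00000013829), for the alpha3 subunit of ganglionic nicotinic receptors, was at 191, 143 and 221 CPM after PRATA and at 102, 212 and 137 CPM after sham. Chrnb3 (ENSRNOG00000012448), for the accessory beta3 subunit, was at 76.5, 65.4 and 108 CPM after PRATA and at 61.9, 115 and 77.9 CPM after sham. In both genes sham replicate 2 stood above the other sham samples and level with the highest PRATA samples. The log2 fold changes were 0.30 ± 0.29 (adjusted p 0.613) and -0.02 ± 0.28 (SE; adjusted p 0.973). For Chrna3 the sign turned to -0.13 when scaled to the neuron markers and to -0.07 without PRATA replicate 3 and sham replicate 1. For Chrnb3 it turned to 0.26 without sham replicate 2.

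Chrnb2, for the beta2 subunit that pairs with alpha4 in much of the brain, averaged 69.9 CPM after PRATA and 50.0 CPM after sham (log2 fold change 0.49, p 0.0694). Chrna7, for the homomeric alpha7 receptor, averaged 29.9 and 21.7 CPM, Chrna6 35.3 and 34.7 CPM, and Chrna4 3.0 and 3.32 CPM. Chrna2 averaged 1.01 and 0.625 CPM and did not overlap between groups (p 0.232), on at most 13 reads a sample. Of the subunits known from the muscle endplate, Chrne averaged 41.7 and 37.2 CPM, Chrnb1 1.31 and 1.09 CPM, and Chrna1 0.731 and 1.26 CPM. The span of Chrne overlaps Gp1ba and another protein-coding gene in the RefSeq table, and whether its reads are its own was not tested. Chrna9 had at most 13 reads and Chrna10 at most 7, and neither was tested.

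Chrna5, Chrna3 and Chrnb4 are neighbours in the genome and their products assemble with each other. Chrnb4 averaged 19.7 CPM after PRATA and 13.9 CPM after sham, and Chrna5, for the accessory alpha5 subunit, 9.29 and 7.97 CPM. Chrna3 took 86.9%, 84.9% and 87.0% of the reads of the 3 genes after PRATA and 85.2%, 87.9% and 88.1% after sham. Over the 6 samples the share of Chrna5 ran from 3.61% to 6.09% and that of Chrnb4 from 7.76% to 10.1%, while the reads of the 3 genes together ran from 1547 to 3212 in a sample. The 250 bases before the RefSeq start of each gene (build GRCr8, printed 5′ to 3′ on the gene's strand) are shown because the 3 genes are neighbours whose products assemble, with each GC box, GGGCGG or its reverse complement CCGCCC, in capitals. They stand at chr8:64265629-64265878 (plus strand) for Chrna5, chr8:64311252-64311501 (minus strand) for Chrna3 and chr8:64333110-64333359 (minus strand) for Chrnb4.
Chrna5: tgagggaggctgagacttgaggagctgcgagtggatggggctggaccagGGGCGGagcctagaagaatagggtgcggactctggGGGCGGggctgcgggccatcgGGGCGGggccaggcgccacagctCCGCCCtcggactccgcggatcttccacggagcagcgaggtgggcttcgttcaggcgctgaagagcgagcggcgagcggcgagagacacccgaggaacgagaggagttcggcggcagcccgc
Chrna3: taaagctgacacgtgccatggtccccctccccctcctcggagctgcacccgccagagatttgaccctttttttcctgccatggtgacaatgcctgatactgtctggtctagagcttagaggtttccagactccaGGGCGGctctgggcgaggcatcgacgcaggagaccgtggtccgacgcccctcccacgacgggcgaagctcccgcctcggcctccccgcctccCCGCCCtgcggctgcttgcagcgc
Chrnb4: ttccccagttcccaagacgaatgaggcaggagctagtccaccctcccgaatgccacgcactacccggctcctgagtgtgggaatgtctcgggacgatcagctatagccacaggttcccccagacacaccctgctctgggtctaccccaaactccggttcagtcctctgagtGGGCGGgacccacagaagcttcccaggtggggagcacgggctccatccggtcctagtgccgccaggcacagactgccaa
They held 4, 2 and 1 GC boxes and a GC content of 70.4%, 65.2% and 62.0%, beside a median of 51.2% over all 33469 promoters. A GC box stood in 30.5% of all promoters of this length and in 24 of the 48 promoters that matched 47 of the members. None of the 3 held TGACGTCA, the cyclic AMP response element (1.6% of all promoters), TGANTCA, the AP-1 site (6.3%), or TATAAA, the TATA box (12.9%), each searched on both strands. Such matches describe the letters and name no site in use.

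The serotonin-gated channel genes had higher means after PRATA, and neither passed the test. Htr3a (ENSRNOG00000006595), for the 5-HT3A subunit that can form the channel alone, was at 60.7, 42.1 and 69.3 CPM after PRATA and at 36.6, 58.4 and 40.05 CPM after sham. Htr3b (ENSRNOG00000006920), for its partner 5-HT3B, was at 23.2, 9.80 and 20.0 CPM after PRATA and at 9.33, 16.1 and 16.2 CPM after sham. Both overlapped between groups, with PRATA replicate 2 the lowest of its group. The log2 fold changes were 0.35 ± 0.25 (adjusted p 0.479) and 0.35 ± 0.36 (SE; adjusted p 0.628), and -0.10 and -0.12 when scaled to the neuron markers.

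**Figure D4:**
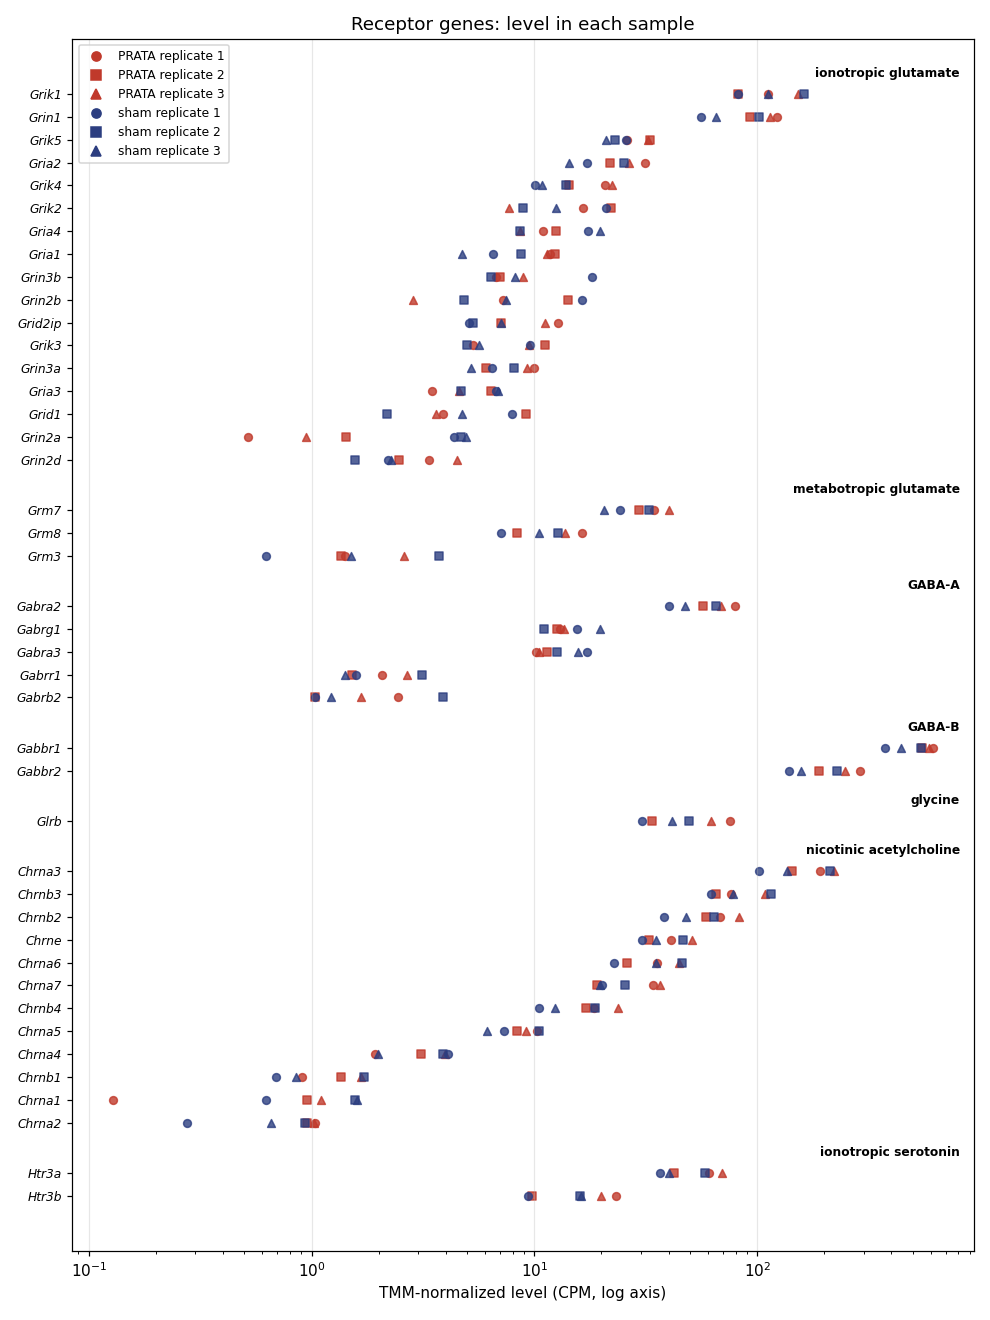
TMM-normalized level (CPM, log axis) of 42 receptor genes tested, by class and, within a class, in order of mean CPM, with 1 point for each of the 3 PRATA and 3 sham samples. Grin2a separates the groups most (0.516 to 1.43 CPM after PRATA, 4.35 to 4.91 CPM after sham), while Grik1 and Chrnb3 cover about the same range in both.

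Some members overlap or neighbour other genes in the genome. In the RefSeq table, the spans of 11 of the 46 genes tested overlap another protein-coding gene, among them Grin1 with Lrrc26, Grin2d with Grwd1 and Grin3b with Tmem259, while Gria1, Grik1 and Grm7 overlap genes named only by a locus number. The library kit keeps strand, but the strand setting of the counting is not given in the sources used here. Of the 68 members, 25 lie in 9 groups of neighbouring genes, where at most 1 other protein-coding gene stands between a member and the next. A group of this kind holds Gabrb1, Gabra4, Gabra2 and Gabrg1.

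The genes that make, move and hold the transmitters and receptors were set beside them from a list of 98 genes, of which 92 were in the table and 74 were tested. At an unadjusted p under 0.05, 9 were higher after PRATA and 8 lower (8.19% and 10.1% of all genes), and edgeR called 0 at an adjusted p under 0.05. By transmitter, 8 of 37 glutamate genes were higher and 2 lower, 1 of 18 GABA genes was higher and 2 lower, 0 of 4 glycine genes were higher and 3 lower, 0 of 11 acetylcholine genes were higher and 1 lower, and 0 of 4 serotonin genes passed. The median log2 fold change was 0.27, 0.02, -1.01, 0.31 and 0.02 in this order. Scaled to the neuron markers, 0 of the 74 genes were higher (0.328% of all genes) and 15 lower (25.2%). Without sham replicate 2, 19 were higher (13.4% of all genes). Without PRATA replicate 1, 4 were higher (3.47%) and 5 lower (5.44%), without PRATA replicate 3, 3 were higher (5.55%), and without sham replicate 3, 4 were higher (3.76%) and 4 lower (5.57%). Over all fits leaving out 1 sample, 3 to 19 were higher and 4 to 11 lower, beside 3.47% to 13.4% and 5.44% to 14.1% of all genes.

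On the glutamate side, genes of scaffolds, auxiliary subunits and transmitter supply were among those higher at an unadjusted p under 0.05. Grip1, a scaffold that binds GluA2 and GluA3, was at 37.0, 30.04 and 32.3 CPM after PRATA and at 19.9, 19.0 and 14.9 CPM after sham (log2 fold change 0.88 ± 0.19, SE; p 0.00145, adjusted p 0.156). Cnih2, an auxiliary subunit that slows AMPA receptor decay, was at 8.26, 9.0 and 8.22 CPM after PRATA and at 4.15, 5.31 and 3.59 CPM after sham (0.98 ± 0.26; p 0.00512, adjusted p 0.168). Slc17a6, the vesicular glutamate transporter VGLUT2, was at 218, 185 and 262 CPM after PRATA and at 117, 176 and 113 CPM after sham (0.71 ± 0.23; adjusted p 0.196). The groups did not overlap in any of the 3. Gls2, a glutaminase that makes glutamate (0.71), Cbln2, a synaptic organizer (1.02), and Ncdn, neurochondrin, which binds metabotropic glutamate receptors (0.56), were also higher, with unadjusted p under 0.05 and adjusted p of 0.196, 0.205 and 0.245.

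Genes of 2 other scaffolds were lower at that threshold. Dlg1, the scaffold SAP97 that binds GluA1, was at 63.8, 78.2 and 59.9 CPM after PRATA and at 167, 89.7 and 187 CPM after sham (log2 fold change -1.14 ± 0.28, SE; p 0.00343, adjusted p 0.158). Homer3, a scaffold of group I metabotropic receptors, was at 8.26, 14.1 and 9.17 CPM after PRATA and at 23.7, 14.8 and 24.9 CPM after sham (-1.01 ± 0.29; adjusted p 0.175). In both genes PRATA replicate 2 and sham replicate 2 lay between the other samples, as they did for the summed satellite glial markers (6560 and 4538 CPM), and the part of glial RNA in these values was not tested.

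For GABA and glycine, 4 of the 5 genes described were lower at an unadjusted p under 0.05 and 1 was higher. Gad1, which makes GABA from glutamate, was at 0.516, 0.319 and 0.237 CPM after PRATA and at 1.59, 2.19 and 2.08 CPM after sham, from 4, 4 and 3 reads and 23, 14 and 22 reads. The PRATA samples were near the floor of 3 counts (log2 fold change -2.45 ± 0.53, SE; p 0.00155, adjusted p 0.156). Gphn, gephyrin, which anchors glycine and GABA-A receptors, was at 18.1, 15.5 and 23.5 CPM after PRATA and at 27.02, 24.0 and 44.2 CPM after sham (-0.74 ± 0.28; adjusted p 0.227). Shmt1 and Shmt2, which interconvert serine and glycine, had log2 fold changes of -1.32 and -0.75 (adjusted p 0.221 and 0.220). All 4 separated the groups by CPM. Shmt1 rested on 5, 20 and 16 reads after PRATA and 41, 13 and 43 after sham. The reads of Shmt1, Shmt2 and Gphn overlapped, and their groups separated only after scaling to library size. Nlgn2, neuroligin 2, an adhesion molecule of inhibitory synapses, was at 48.7, 44.1 and 47.4 CPM after PRATA and at 41.5, 31.2 and 28.5 CPM after sham (0.47 ± 0.19; p 0.0393, adjusted p 0.251). Its groups did not overlap, and it was named after its values were seen, being the 13th by p.

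With quality weights in limma voom, Grip1, Gad1, Dlg1, Cnih2, Homer3 and Slc17a6 had adjusted p of 0.0324, 0.0419, 0.0322, 0.0382, 0.0352 and 0.0398. DESeq2 gave 0.0104 for Grip1, 0.00711 for Dlg1 and 0.0414 for Homer3, and without sham replicate 2 edgeR gave 0.0263 for Dlg1 and 0.0470 for Slc17a6.

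**Figure D5:**
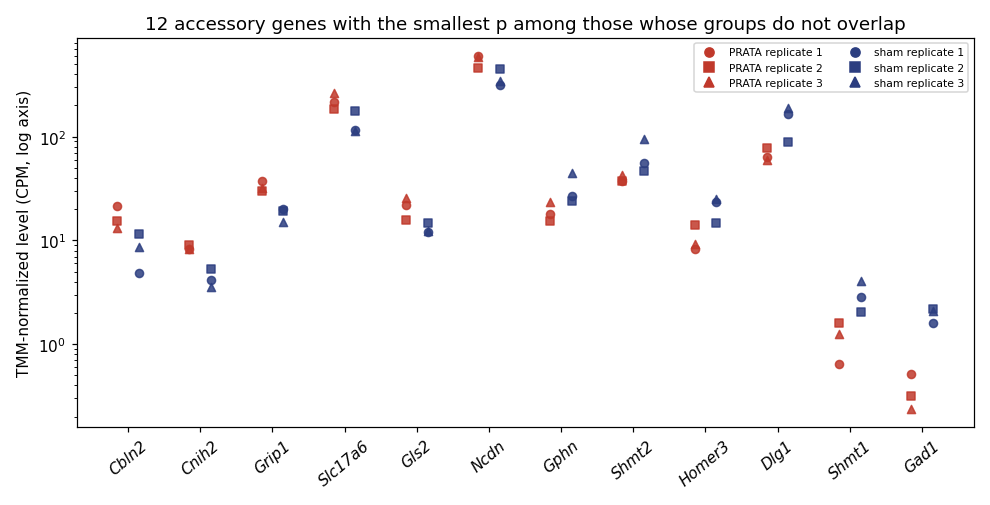
Level (CPM, log axis) of the 12 accessory genes with the smallest p among the 13 past an unadjusted p of 0.05 whose groups did not overlap, with 1 point for each PRATA and sham sample. Cbln2, Cnih2, Grip1, Slc17a6, Gls2 and Ncdn are higher in every PRATA sample, and Gphn, Shmt2, Homer3, Dlg1, Shmt1 and Gad1 are lower (Gad1 at 0.237 to 0.516 CPM against 1.59 to 2.19 CPM).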

How the data were processed

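RNA was measured in 3 PRATA and 3 sham samples, grouped by the treatment label. The paper's methods describe isolated L1-L2 DRG neurons, and the series' text speaks of DRG tissues. The deposited table holds whole-number counts of reads per gene, made by the authors without normalization. The submitters' processing notes name STAR 2.7.3a, RSEM and DESeq2, whereas the paper's methods describe other tools for FPKM values that were not used here. The genome build, the annotation release and the strand setting of the counts are not given in the sources used here. All columns of sample values were used.

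Counts were filtered with filterByExpr (count minimum 10, total minimum 15), scaled by TMM and tested with edgeR 4.0.16 (limma 3.58.1, R 4.3.3) by the quasi-likelihood test of PRATA against sham and Benjamini-Hochberg adjustment over 14919 genes. The standard error is the log2 fold change divided by the root of F. Exact permutation of 3 against 3 samples cannot give a p below 0.1 and was not used. Total counts were 8129162, 12209863 and 12892124 after PRATA and 15226952, 5892967 and 10693367 after sham. Floors cover counting error only, because PCR copies cannot be told from separate molecules. Replicates differed by more than sampling noise (chi-square per degree of freedom 25.3 to 106), so none was counted as a duplicate.

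The members and lists were chosen with earlier results of these data known. Named in full were, in each class, the 2 members with the most reads and every member with an unadjusted p under 0.05, and, of the accessory genes, up to 12 by smallest p with groups that do not overlap. The rule asked for levels per length, but no transcript lengths were at hand, so mean CPM served for this choice. Some members are counted but not reported here by name, nor drawn. All 68 members matched the RefSeq gene table, and promoters (GRCr8) matched 47. Plots used matplotlib 3.10.9 under Python 3.11.15, and the fit was tested on simulated data. Alternatives were DESeq2's size factors, library size alone, scaling to the neuron markers, other filters, DESeq2 1.42.0, limma voom with quality weights, limma-trend on log2(CPM + 1), protein-coding genes alone, a replicate block and leaving out samples. The accessory genes were put through the same alternatives after their values were seen.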

Additional observations from a re-analysis of the deposited data

How the results depend on the processing

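The direction of Gria1, Grik4, Grid2ip, Grin2a, Gabra3 and Grin1 held under every alternative that tested them. So did that of Gabbr2 (0.03 to 0.71) and Glrb (0.02 to 0.77). The alternatives reuse the same counts, and of the genes named first all but Grin1 were chosen by their p in them. Scaled to the neuron markers, the number of receptor genes higher at an unadjusted p under 0.05 was 0, the median log2 fold change was -0.12 over the receptor genes, -0.23 for ionotropic glutamate, -0.12 for metabotropic glutamate, -0.44 for GABA-A, -0.022 for GABA-B, -0.17 for nicotinic and -0.11 for serotonin genes, and the sign turned for Grm7 (-0.020), Grm8 (-0.12), Gabra2 (-0.0049), Gabbr1 (-0.072), Chrna3 (-0.13), Htr3a (-0.10) and Htr3b (-0.12). The accessory genes then gave 0 higher and 15 lower. With no filter, 68 receptor genes were tested, 5 were higher and 2 lower also by fold, and the medians were 0.092 over all, -0.26 for metabotropic glutamate and -0.32 for GABA-A. With 10 counts in every sample, 1 was lower and 0 also by fold, since Grin2a was no longer tested. limma voom with quality weights gave 12 higher, 1 of them also by fold, 1 higher and 1 lower at an adjusted p under 0.05, 20 accessory genes higher, a GABA-A median of 0.37, and values of 0.035 for Grik1 and 0.036 for Chrnb3. Without PRATA replicate 3 and sham replicate 1, which an earlier analysis of these data set apart, 1 receptor gene was lower, 5 accessory genes were higher, the medians were 0.42 for ionotropic glutamate, -0.24 for GABA-A and -0.12 for nicotinic genes, and Chrna3 was at -0.067, Grik1 at -0.50 and Chrnb3 at -0.45. Apart from the scaling to the neuron markers, no share of all genes stands here beside the unadjusted counts of these fits. Those counts cannot show whether receptor or accessory genes were called more often than all genes. The cause of these moves was not tested.

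Leaving out 1 sample at a time, the receptor genes at an unadjusted p under 0.05 numbered 1 to 13 higher and 1 to 3 lower, most without sham replicate 2. Of all genes, 3.47% to 13.4% were higher and 5.44% to 14.1% lower in these fits, the largest shares also without sham replicate 2. Also by fold, 0 to 1 receptor genes were higher, and 0 to 1 passed at an adjusted p under 0.05 (1.05% of all genes higher without sham replicate 2). No share of all genes by fold is given for these fits, so that count cannot be set beside it. The median log2 fold change ran from 0.15 to 0.40 for ionotropic glutamate genes (highest without sham replicate 1) and from -0.11 to 0.51 for GABA-A genes (0.25 without PRATA replicate 2, highest without sham replicate 2). For nicotinic genes the highest median was 0.53, without sham replicate 2, where Chrna3 was at 0.63. Accessory genes numbered 3 to 19 higher and 4 to 11 lower, beside the same unadjusted shares of all genes. The sign turned for Chrnb3 without PRATA replicate 1 (0.01), PRATA replicate 2 (0.13) and sham replicate 2 (0.26), and for Grik1 without PRATA replicate 2 (0.17) and sham replicate 2 (0.26).

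The titles number the replicates 1 to 3 in both groups, but nothing says that a number marks a shared litter or day. Same-numbered samples did not deviate together (correlations of -0.39, -0.10 and -0.36), and 0 samples correlated best with their own number. A replicate block in the fit left 1 receptor gene lower and 2 higher at an unadjusted p under 0.05. The share of all genes in that fit is not given here, so these counts cannot be set beside it. The floor of 3 counts was worth most in sham replicate 2, at 0.468 CPM.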

Other observations

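The 22 receptor genes that were not tested had 1 to 22 reads in their highest sample, with a median of 10.5. In 12 of the 22 this was sham replicate 2, the library with the fewest reads, where 57.3% of the 10770 untested genes with any read also had their highest CPM. Their summed level was 25.9 CPM in sham replicate 2 and 5.87 to 7.20 CPM in the other samples. All 22 were above 0 in sham replicate 2, beside 14 to 18 in the others. Gabrq and Gabrb1, chosen after their values were seen, were the untested members whose groups did not overlap, with Gabrq higher after PRATA (8, 10 and 13 reads against 5, 2 and 6) and Gabrb1 lower (4, 8 and 8 reads against 17, 5 and 8), both by CPM and without a test. The reads of Gabrb1 themselves overlapped, and its groups separated only after scaling to library size. The groups did not overlap in 22.8% of all genes tested, and the share over all untested genes was not worked out.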
